A study of Mus musculus with 4 samples.

Results

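The stefin A cluster genes Stfa1, Stfa2, Stfa2l1, Stfa3, BC100530 and Gm5483 were followed through neutrophil development in mouse marrow that carried wild-type or mutant Idh1. They are 6 of the 27998 features counted, taken by symbol, and were singled out because Stfa1, BC100530 and Stfa3 had lower levels in Idh1-R132H libraries. Their genotype values are therefore a description, and the tests concern the stage of the cells, the cells that carry stefin transcripts and other genes.

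Stefins are small cystatin-family proteins that sit in the cytosol and block cysteine cathepsins, the papain-like proteases of lysosomes and granules. The mouse genome holds a cluster of closely related stefin A copies on chromosome 16, and these copies are known as transcripts of neutrophils and other myeloid cells. Neutrophils arise from granulocyte-monocyte progenitors through precursors that fill with secondary granule proteins such as lactoferrin and cathelicidin before the mature cell appears.

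The study compared Idh1-R132H with Idh1-WT marrow. R132H is a change in cytosolic isocitrate dehydrogenase that lets the enzyme make 2-hydroxyglutarate. Tamoxifen given for 5 days induced recombination of an EYFP reporter and, in the mutant group, of 1 Idh1-R132H allele beside a wild-type allele. The Cre line and the ages of the mice are not given in the sources used here. EYFP-positive lineage-negative cells taken 2 weeks later went into irradiated recipients without support marrow, whose marrow was taken at 16 weeks. Every library joins, for 1 recipient, 3 EYFP-positive sorts of 4000 cells in a single tube: all CD45.1-positive cells, the stem cell-rich LSK gate and the progenitor-rich LK gate. Each group has 2 libraries, named Idh1-WT 1, Idh1-WT 2, Idh1-R132H 1 and Idh1-R132H 2. The labels do not say whether the donors differed, so any p-value concerns only the spread between these libraries. With so few libraries the main test, edgeR, takes a gene's spread largely from that pooled over all genes.

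The libraries held between 40364701 and 56353466 unique molecular identifiers (UMIs, counted transcript molecules), and 16262 cells were kept. Of the 15813 distinct barcodes of these cells, 442 occurred in more than 1 library, but none of the 565 stefin-carrying barcodes of the neutrophil classes did. Classes were given cell by cell from marker sets that hold no stefin gene. The neutrophil-like class (335, 252, 239 and 272 cells, in the order of the libraries just given, which is used throughout) had all 12 of its markers detected, among them Cxcr2, Csf3r, Mmp9 and Retnlg, and a median of 1558.5 UMIs per cell. The neutrophil precursor-like class (413, 306, 268 and 403 cells) had all 10 of its markers, among them Ltf, Camp and Ngp, and a median of 4759.5 UMIs. In the precursor-like class Xist was lower and the Y-linked Eif2s3y higher in Idh1-R132H, at 328 and 202 against 170 and 165 CPM (the UMIs of a gene scaled to the total UMIs of its class in that library) for Xist and 2.98 and 12.7 against 21.9 and 20.2 for Eif2s3y. The part of these sex-linked differences in the genotype values was not tested beyond the values given below for cells with Xist and no Y-linked UMI.

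The cluster spans 299 kb of chromosome 16 (GRCm38, GENCODE vM21). Stfa2l1 (16:36156811-36161953), Gm5483 (16:36184212-36188111) and Stfa1 (16:36276951-36285373) lie on the plus strand, and BC100530 (16:36359382-36367748), Stfa2 (16:36403992-36408457) and Stfa3 (16:36450537-36455392) on the minus strand. All 6 are protein-coding genes of 3 exons. The stefin-related genes Gm5416 and 2010005H15Rik lie between Gm5483 and Stfa1, and BC117090 between Stfa1 and BC100530. Coding sequences of the 6 were between 73.1% (Stfa1 and Stfa2l1) and 97.9% (Stfa1 and BC100530) identical. Of all 96-base stretches of the Stfa1 transcript, the length of the cDNA read, 6.32% also occurred in another gene, against 14.5% for BC100530, 12.2% for Gm5483, 0.532% for Stfa2, 0.617% for Stfa2l1 and 0 for Stfa3. BC100530 shared stretches with Stfa1 and BC117090, and Gm5483 with 2010005H15Rik. Reads from such stretches cannot be given to 1 copy, so levels of Stfa1, BC100530 and Gm5483 are less certain than those of Stfa3.

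The sequences before the RefSeq starts show how alike the copies are and where they part. The 100 bases before each annotated RefSeq start (GRCm38.p6) are printed 5′ to 3′ on the strand of the gene, with each TTTAAA and AGATAA in capitals. All 6 members matched RefSeq by gene ID, BC100530 as Cstdc5 and Gm5483 as Cstdc4. The RefSeq and GENCODE starts differ for 3 of them: the stretches of Stfa1 and BC100530 lie wholly, and that of Stfa2 mostly, inside the GENCODE gene. TTTAAA begins 9 bases before the RefSeq start of BC100530 and 29 to 33 before the others, so the stretches are not in register.
Stfa2l1 (16:36156711-36156810, plus strand): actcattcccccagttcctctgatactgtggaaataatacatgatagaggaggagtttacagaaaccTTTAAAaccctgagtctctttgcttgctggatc
Gm5483 (16:36184112-36184211, plus strand): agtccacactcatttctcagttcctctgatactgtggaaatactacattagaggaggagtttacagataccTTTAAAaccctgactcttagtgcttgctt
Stfa1 (16:36277048-36277147, plus strand): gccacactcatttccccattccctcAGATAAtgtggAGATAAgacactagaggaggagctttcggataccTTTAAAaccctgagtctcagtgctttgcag
BC100530 (16:36367571-36367670, minus strand): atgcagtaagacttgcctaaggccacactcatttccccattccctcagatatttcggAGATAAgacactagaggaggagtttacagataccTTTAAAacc
Stfa2 (16:36408364-36408463, minus strand): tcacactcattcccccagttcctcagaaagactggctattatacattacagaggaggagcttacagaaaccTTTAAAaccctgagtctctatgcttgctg
Stfa3 (16:36455393-36455492, minus strand): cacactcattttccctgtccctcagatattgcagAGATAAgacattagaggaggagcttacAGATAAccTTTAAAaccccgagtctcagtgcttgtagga
All 6 carry TTTAAA in the last 40 bases before the start, a TATA-like stretch found there in 1.94% of 27025 RefSeq promoters searched on both strands. AGATAA, the core of a GATA site, stands in the 250 bases before the start of Stfa1, Stfa3 and BC100530 but not of Stfa2, Stfa2l1 and Gm5483, and in 10.3% of all promoters. In the printed stretches the capitals of the motifs do not overlap. Of the other motifs searched in the 250 bases on both strands, GAGGAA, the core of a PU.1 site, stood in all 6 members and 23.1% of all promoters. TTGCNNAA, the outline of a C/EBP site, stood in Stfa1 and BC100530 and 9.55%, and TATAAA in no member. A match is a run of letters, not a bound site. Over the 250 bases before each RefSeq start, identity between members ran from 69.2% (Stfa3 and Gm5483) to 90.8% (Stfa2 and Stfa2l1).

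Transcripts of the cluster were held almost entirely by neutrophils and their precursors. The 6 genes together gave 4661 UMIs in 737 of 16262 cells, and 90.1% of these UMIs lay in the 2 neutrophil classes, 77.7% in neutrophil-like and 12.4% in precursor-like cells. Gm5483 was the most abundant copy with 2426 UMIs, followed by Stfa2l1 with 1056, Stfa1 with 632, BC100530 with 415, Stfa3 with 97 and Stfa2 with 35. The neutrophil-like class held between 57.7% (Stfa3) and 83.8% (Gm5483) of each copy's UMIs.

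Outside both classes few stefin UMIs were detected. Granulocyte-monocyte progenitor-like cells, the deepest class with a median of 20624 UMIs, had 72 stefin UMIs in 60 of 3412 cells (1.76%), or 1.06 CPM. Monocyte-like cells had 7 UMIs in 999 cells. B cell precursor-like cells had 23 UMIs (9.83 CPM), 20 of them in 1 cell. Mature B-like cells, which should lack the genes, had 1 UMI in 472 cells (0.212%) at a median depth of 1722.5 UMIs. None of 230 T or NK-like cells (median 3052.5 UMIs) had one, which allows a share of up to 1.30% of cells with a UMI and does not limit the share that express the genes. Of 306 stefin UMIs in cells left without a class, 261 lay in 35 cells whose highest marker score was that of neutrophils or precursors. Free RNA, estimated from droplets with at most 50 UMIs, would give at most 3.17 stefin UMIs in either class of any library, where between 67 and 1216 were counted.

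Stefin levels rose steeply from precursor-like to neutrophil-like cells in every library. In precursor-like cells the 6 genes summed to 107, 74.1, 40.7 and 29.2 CPM. In neutrophil-like cells of the same libraries they summed to 1571, 2901, 1378 and 1516 CPM. The lowest neutrophil-like value was thus far above the highest precursor-like value.

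With the library as a block, 4 members could be tested between the stages and all 4 rose, higher in 4 of 4 libraries each (edgeR's quasi-likelihood test, Benjamini-Hochberg). In this comparison 45% of 5653 genes tested changed and 25.8% rose, so a rise by itself is common. Gm5483 rose by a log2 fold of 6.25 (SE 0.41, adjusted p = 4.8e-05) and ranked 5 by size among 1461 rises. Stfa2l1 rose by 4.65 (SE 0.16, adjusted p = 1.1e-24), BC100530 by 4.26 (SE 0.46, adjusted p = 0.00015) and Stfa1 by 3.31 (SE 0.31, adjusted p = 9.6e-06). Stfa2 and Stfa3 did not pass the filter on low counts. Stfa1, BC100530 and Gm5483 passed it through their neutrophil-like sums, since their precursor-like counts were low in some libraries. That all 4 tested members rose was thus partly set by the filter. Precursor-like levels of Stfa1 and BC100530 differed between genotypes, as given below, so their folds join unlike libraries.

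Ordering both classes by the neutrophil score minus the precursor score, in 5 bins of equal size over all libraries, placed the rise in the middle of the order. The sum of 6 stood at 24.7 ± 16.0 CPM for Idh1-WT and 11.9 ± 1.83 for Idh1-R132H (SD, n = 2 each) in the first bin. In the third bin it was 606 ± 48.5 and 258 ± 7.61, and in the fifth 1966 ± 130 and 1784 ± 2.86. The fourth bin held the highest wild-type mean, 2597 ± 1589, with 1473 CPM in Idh1-WT 1 and 3720 in Idh1-WT 2.

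Other protease inhibitors did not all follow the stefins. Of the other cysteine protease inhibitors, 4 of 9 could be tested and 3 rose: Cst3 (cystatin C, secreted) by 0.89 on the log2 scale (SE 0.11), Cstb (stefin B, the single-copy cytosolic relative) by 0.83 (SE 0.14) and Cst7 (cystatin F, of granules) by 0.50 (SE 0.21). These folds were smaller than those of the 4 stefin copies. Cst7 did not rise in every library: it went from 29.4, 30.2, 28.6 and 32.8 CPM to 35.3, 23.9, 55.0 and 56.5. Cast, which encodes the calpain inhibitor calpastatin, stood at 27.9 CPM in precursor-like and 26.9 in neutrophil-like cells. Of 13 neutrophil serine protease inhibitors and related genes 7 were tested, and 3 rose and 3 fell. Wfdc17 rose by 6.22 (SE 0.18) and Slpi, the inhibitor of elastase and cathepsin G, by 2.58 (SE 0.12), while Serpinb1a, the cytosolic elastase inhibitor, fell by 2.13 on the log2 scale (SE 0.12).

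Among cysteine cathepsins and legumain, the genes that passed moved less than the stefin copies that were tested. Of these 11 genes 5 were tested, so most gave no value. Ctss (cathepsin S) rose by 1.30 (SE 0.28), from 12.6 to 30.2 CPM. Ctsb (cathepsin B) fell by 0.81 (SE 0.15), from 120 to 68.1 CPM, and Ctsh (cathepsin H) fell by 0.43 (SE 0.15). The list's median log2 fold was 0.36, beside 0.01 over all genes.

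Genes around the cluster were lowly expressed or rose less. Of 23 listed neighbours 21 were among the features and 7 could be tested, of which Hcls1, Parp14 and Dtx3l rose by 1.00 (SE 0.11), 1.96 (SE 0.45) and 0.87 (SE 0.36) on the log2 scale. Dtx3l fell in Idh1-R132H 2, from 7.92 to 5.84 CPM. Of the stefin-related genes inside the cluster, 2010005H15Rik had 36 UMIs and Gm5416 16 UMIs in neutrophil-like cells, and BC117090 had 2. Csta1, just before Stfa2l1, had none. Casr, the next gene beyond Stfa3, had none in any kept cell.

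Late neutrophil genes and S100 and antimicrobial genes give the setting. Of 20 late genes, 11 served as class markers and were left out, and of 8 tested 7 rose and 1 fell. Clec4e, a C-type lectin receptor, rose by 2.81 (SE 0.14). Of 10 S100 and antimicrobial genes tested 5 rose and 3 fell, S100a6 by 2.50 (SE 0.12) upward. Apart from class markers and members, the steepest rises among well-measured genes were those of Gm5150 (6.66, SE 0.27) and Pla2g7 (6.46, SE 0.27), and the steepest fall that of Mogat2 (fell by 5.40, SE 0.48).

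Across 13 classes in 4 libraries (52 sums), the genes whose log2(CPM + 1) most resembled the summed stefins were Gm20406 (r = 0.93), Retnlg (r = 0.93), Slfn4 (r = 0.93), Arg2 (r = 0.93) and Ceacam10 (r = 0.92), out of 6898 genes. Retnlg is itself a marker of the neutrophil class. The points share libraries and differ in depth by class, so these values describe likeness and carry no test.

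**Figure D1:**
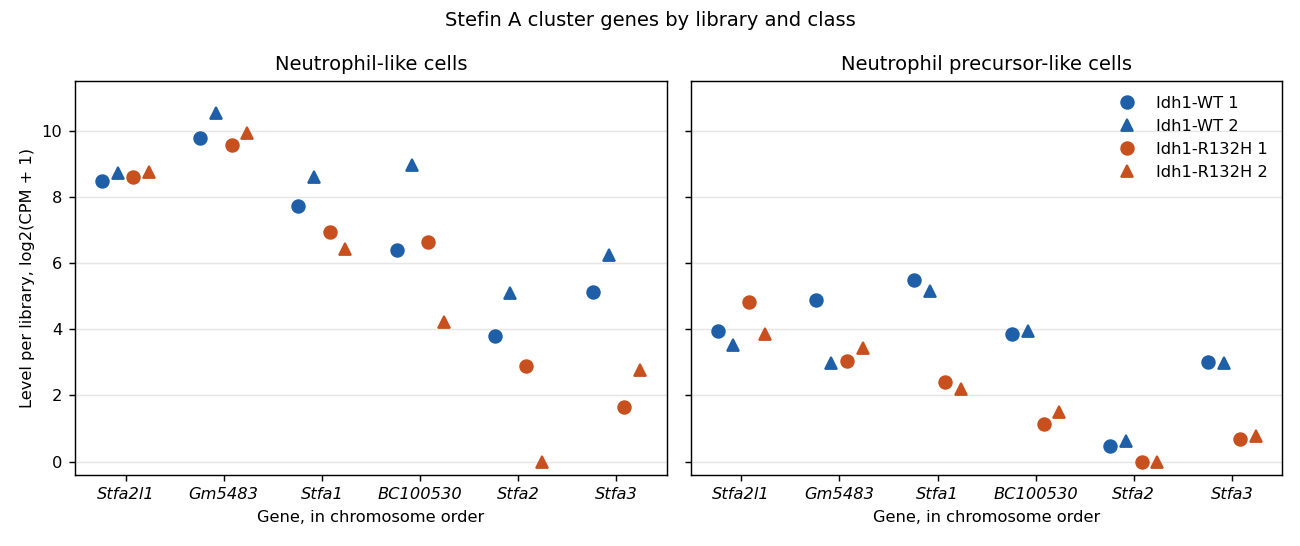
Level of each stefin A cluster gene in the 4 libraries, as log2(CPM + 1), in neutrophil-like (left) and neutrophil precursor-like (right) cells; each point is 1 library, blue Idh1-WT and orange Idh1-R132H, circles replicate 1 and triangles replicate 2. Stfa2l1 lies together in all libraries of the left panel, while Stfa1 and Stfa3 lie lower in both Idh1-R132H libraries in both panels.

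A minority of neutrophil-like cells carried the transcripts, and some of these carried many. At least 1 stefin UMI was found in 146, 87, 103 and 98 neutrophil-like cells, which is 43.6%, 34.5%, 43.1% and 36.0% of the class (exact 95% intervals 38.2 to 49.1, 28.7 to 40.7, 36.7 to 49.6 and 30.3 to 42.0). The genotypes overlapped. Thinned to 1000 UMIs per cell, with 54, 40, 27 and 46 shallower cells left out, the shares were 41.3%, 31.6%, 36.3% and 34.5%. Intervals cover counting error only.

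Carrying and other neutrophil-like cells had similar depth. Median UMIs of carrying cells were 1549.5, 1639, 1523 and 1572, and of the others 1602, 1513, 1631.5 and 1521. The 5 richest cells held 14.8%, 35.6%, 27.6% and 25.8% of the class's stefin UMIs. Cells with at least 10 stefin UMIs, 124 of 1098, held 72.6%.

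Most carrying cells showed UMIs of 1 copy, but most of the richer cells showed those of several. Of 434 carrying neutrophil-like cells 294 had UMIs of 1 member, 122 of 2 and 18 of 3 or more. Low counts alone can leave a cell with 1 member, so richer cells matter more: of 202 cells with at least 5 stefin UMIs, 101 drew at least 90% of them from 1 copy, and 87 had UMIs of that copy alone. Gm5483 led in 124 of the 202, Stfa2l1 in 39, Stfa1 in 24 and BC100530 in 13. Among cells with at least 10 stefin UMIs, 58 drew at least 90% from 1 copy and 44 had that copy alone.

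Single cells show the extremes. The richest cell of Idh1-R132H 1 had 68 UMIs, all of Gm5483. The next had 32, all of Stfa1, in a cell of 16085 UMIs. The richest precursor-like cell of Idh1-WT 1 had 70 of Stfa1 and 3 of Stfa2l1.

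At the other end, 1 cell of Idh1-WT 2 carried all 6 members. It had 94 UMIs of Stfa1, 65 of BC100530, 47 of Gm5483, 11 of Stfa2, 9 of Stfa2l1 and 5 of Stfa3, which together made 12.4% of its 1864 UMIs. That cell alone gave 231 of the 1216 stefin UMIs of its library's class. Pairs of copies overlapped in part: 104 cells carried both Gm5483 and Stfa2l1, 42.6% of the Gm5483 carriers and 40.8% of the Stfa2l1 carriers, while 6 cells carried both Stfa1 and BC100530, of 44 Stfa1 and 30 BC100530 carriers.

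**Figure D2:**
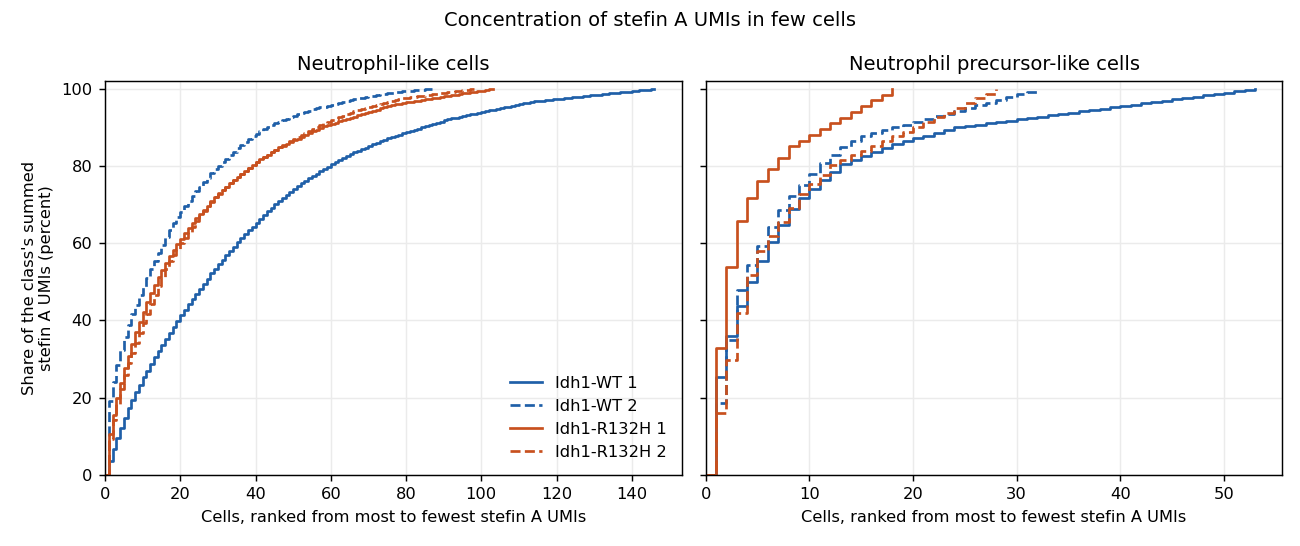
Share of the class's summed stefin A UMIs (percent, vertical) held by the cells ranked from richest to poorest (horizontal), 1 line per library, blue Idh1-WT and orange Idh1-R132H, solid replicate 1 and dashed replicate 2, for neutrophil-like (left) and precursor-like (right) cells. The curves rise fast: 5 cells held between 14.8% and 35.6% in neutrophil-like cells and between 55.4% and 76.1% in precursor-like cells.

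Carrying cells differed from the other neutrophils in 1 gene that passed the test. Of 2121 genes tested between carrying and other neutrophil-like cells with the library as a block and the members left out, 1 passed (0.0471%). Ltf, lactoferrin of secondary granules and a marker of the precursor class, was lower in carrying cells, at 313, 446, 193 and 366 CPM against 521, 555, 370 and 700 (fell by 0.74 on the log2 scale, SE 0.14, adjusted p = 0.024 by edgeR; lower in 4 of 4 libraries). The call was lost without Idh1-WT 1 (adjusted p = 0.89), without Idh1-R132H 1 (0.072) and with DESeq2 (0.80), where the fold stayed between -0.67 and -0.73. At an unadjusted p under 0.05 there were 94 genes.

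No list gene passed in that comparison. Late neutrophil genes had a median log2 fold of -0.02 over 18 tested, S100 and antimicrobial genes -0.09 over 12, other cysteine protease inhibitors -0.04 over 3 and serine protease inhibitors -0.01 over 5, beside 0.00 over all genes. Of 3 cathepsins tested (median -0.40), Ctsb stood at 48.4 CPM in carrying and 82.5 in other cells (log2 fold -0.76, SE 0.30, adjusted p = 0.96). The 1 neighbour tested, Hcls1, stood at 294 and 288 CPM.

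In precursor-like cells carriers were rarer: 53, 32, 18 and 28 cells, or 12.8%, 10.5%, 6.72% and 6.95%. Both Idh1-R132H shares lay below both Idh1-WT shares. Thinned to 1000 UMIs the shares were 6.72%, 7.38%, 2.68% and 2.05%. Carriers lay later in the order: their neutrophil minus precursor score averaged -1.37, -1.64, -1.53 and -1.42, against -1.89, -1.95, -1.92 and -2.05 in the other precursor-like cells. Of the 131 carriers 118 had UMIs of 1 member.

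Over all cells of each class, the genotype values differed along the chromosome. The first 2 genes, Stfa2l1 and Gm5483, overlapped between genotypes, and the 4 beyond them lay lower in Idh1-R132H, with BC100530 overlapping in neutrophil-like cells. This division was made after the values were seen and carries no test, and it was not seen in neutrophil-like cells with a Xist UMI and no Y-linked UMI. There Gm5483 and Stfa2l1 summed differed by -1.24 on the log2 scale and the other 4 by -0.93. These 2 values rest on only 16, 3, 8 and 5 stefin-carrying cells, so they cannot decide whether the division holds. In neutrophil-like cells all 9 monocyte markers were detected and summed to 65.9 and 64.4 CPM in wild-type and 104 and 101 in mutant libraries, and the 7 granulocyte-monocyte progenitor markers to 2894 and 2519 against 3413 and 2638. Dendritic cell markers, of which 3 of 9 were detected (Siglech, Cd209a, Batf3, Xcr1, Ccr9 and Klk1 at 0), summed to 43.4 and 42.9 against 69.8 and 95.5 CPM, and T or NK markers (6 of 9 detected) to 162 and 126 against 214 and 175. Macrophage markers (6 of 8 detected) summed to 135 and 95.4 against 93.1 and 70.1, and the class's own neutrophil markers to 62029 and 71450 against 60910 and 58653. In precursor-like cells granulocyte-monocyte progenitor markers summed to 2961 and 3064 against 3159 and 3262 CPM, and plasma cell markers (4 of 5 detected) to 74.4 and 62.4 against 92.4 and 83.9. The other sets overlapped between genotypes, as did the granulocyte-monocyte progenitor markers in neutrophil-like cells. The part of any marker set in the stefin values was not tested.

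Stfa2l1 in neutrophil-like cells stood at 353 and 418 CPM (Idh1-WT) and 389 and 427 (Idh1-R132H), carried by 84, 50, 59 and 62 cells. The groups overlapped almost completely. Gm5483 stood at 877 and 1494 against 758 and 980 CPM, carried by 78, 55, 54 and 57 cells, again overlapping.

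Stfa1 in neutrophil-like cells stood at 210 and 389 CPM (Idh1-WT) and 123 and 85.7 (Idh1-R132H), a log2 ratio of mean CPM of -1.52. Carriers numbered 19, 10, 8 and 7. A single cell gave 94 of the 163 Stfa1 UMIs of Idh1-WT 2, and another 32 of the 58 of Idh1-R132H 1. The groups did not overlap, yet each rests on few cells.

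BC100530 in neutrophil-like cells stood at 83.5 and 494 against 99.5 and 17.5 CPM, carried by 8, 13, 6 and 3 cells. Idh1-R132H 1 was above Idh1-WT 1, so the groups overlapped. Stfa3 stood at 33.7 and 74.0 against 2.12 and 5.84 CPM, from 52 UMIs in 16 cells and 4 UMIs in 3 cells, a log2 ratio of -3.76. Stfa2 gave 8 and 14 UMIs in wild-type and 3 and 0 in mutant libraries, too few for a ratio.

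In precursor-like cells Stfa1 stood at 43.9 and 34.9 CPM (Idh1-WT) and 4.25 and 3.60 (Idh1-R132H), a log2 ratio of -3.33. Carriers numbered 11 and 16 against 3 and 2. BC100530 stood at 13.4 and 14.3 against 1.22 and 1.80 CPM (log2 ratio -3.20), from 10 and 6 cells. Stfa3 stood at 7.07 and 6.88 against 0.608 and 0.720 CPM, from 32 and 3 UMIs. For these 3 copies both mutant values lay below both wild-type values, but few wild-type cells weigh heavily. A single cell gave 70 of the 118 Stfa1 UMIs of Idh1-WT 1, and another 26 of the 66 of Idh1-WT 2. For BC100530 a single cell gave 30 of 36 and 20 of 27 UMIs. Without the 5 richest cells of each library, mean BC100530 was 0.38 CPM in Idh1-WT and 0 in Idh1-R132H. The share of cells carrying BC100530 overlapped between genotypes.

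Stfa2l1 in precursor-like cells stood at 14.5 and 10.6 against 27.4 and 13.3 CPM, and Gm5483 at 28.3 and 6.88 against 7.29 and 9.72. Both overlapped. Stfa2 gave 1 UMI in each Idh1-WT library and none in Idh1-R132H.

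**Figure D3:**
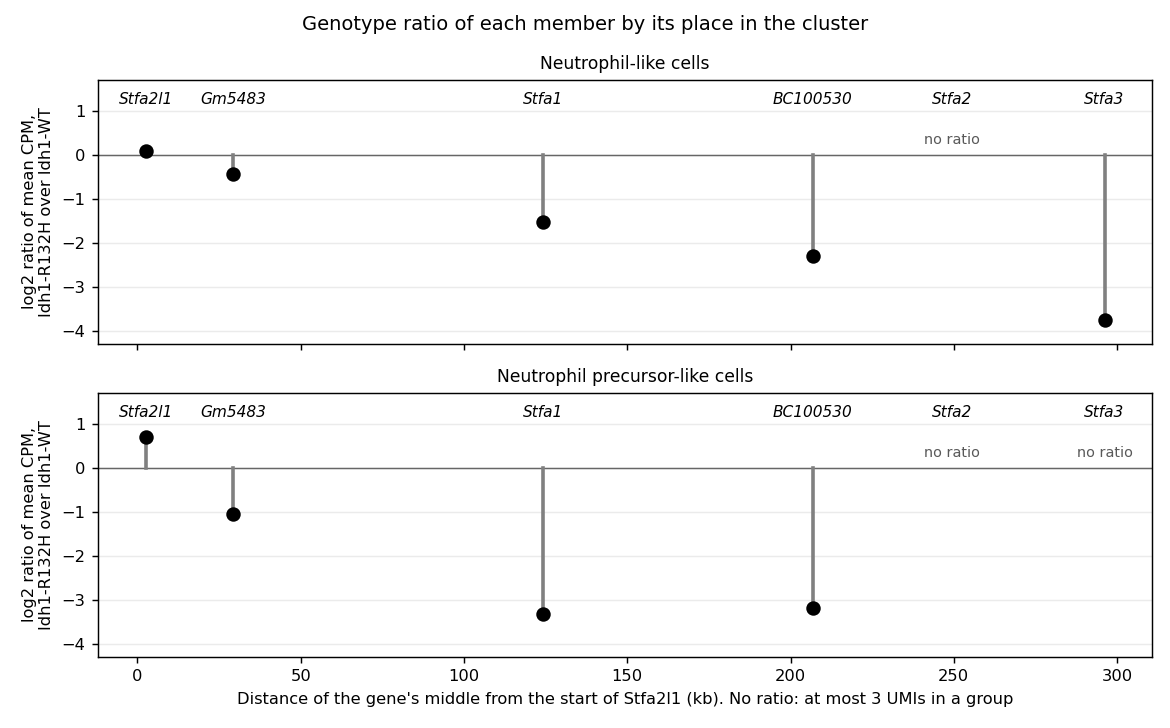
Log2 ratio of mean CPM, Idh1-R132H over Idh1-WT (vertical), of each gene at the distance of its middle from the start of Stfa2l1 in kb (horizontal), in neutrophil-like (top) and precursor-like (bottom) cells; genes with at most 3 UMIs in a group have no ratio. In neutrophil-like cells the ratio runs from 0.08 at Stfa2l1 to -3.76 at Stfa3, and in precursor-like cells Stfa1 and BC100530 stand at -3.33 and -3.20.

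Of the 6 members 5 could be set against all genes in each class. In neutrophil-like cells 2 of them, Stfa1 and Stfa3, were among the 7 of 3555 genes that edgeR called (0.197%; 0.141% lower and 0.0563% higher). These 2 lay lower without overlap, as did 14.1% of all genes tested, and 41.1% had no overlap in either direction. In precursor-like cells 3 of them, Stfa1, BC100530 and Stfa3, were among 18 called of 7372 (0.244%; 0.19% lower and 0.0543% higher). These 3 lay lower without overlap, as did 16.6% of all genes, and 32.1% had no overlap in either direction. The members were chosen on this contrast, so the counts support nothing further.

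Summed, Stfa1, BC100530, Stfa2 and Stfa3 gave 64.7 and 56.6 CPM (Idh1-WT) against 6.08 and 6.12 (Idh1-R132H) in precursor-like cells (log2 difference -3.31), and 341 and 990 against 231 and 109 in neutrophil-like cells (-1.97). The latter was between -2.61 and -1.004 with 1 library left out, the smallest without Idh1-WT 2, and -3.04 without the 5 richest cells of each library. Gm5483 and Stfa2l1 summed to 42.8 and 17.5 against 34.6 and 23.1 (-0.06), and to 1231 and 1911 against 1147 and 1407 (-0.30). With 1 library left out these were between -0.57 and 0.72, the highest without Idh1-WT 1, and between -0.58 and 0.05, the highest without Idh1-WT 2. Of 434 carrying neutrophil-like cells 347 had only Gm5483 or Stfa2l1, 39 only the other 4 and 48 both.

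The make-up of the stefin transcripts in precursor-like cells differed between genotypes when classes were given by marker scores, on few UMIs. Stfa1 made 40.8% and 47.1% of their summed UMIs in wild-type and 10.4% and 12.3% in mutant libraries, and Stfa2l1 13.5% and 14.3% against 67.2% and 45.7%. These shares rest on 289, 140, 67 and 81 UMIs. A single cell gave 70 Stfa1 UMIs in Idh1-WT 1, and another 22 Stfa2l1 UMIs in Idh1-R132H 1. With classes by cluster, Stfa1, BC100530, Stfa2 and Stfa3 gave 75, 105, 48 and 17 UMIs. Gm5483 and Stfa2l1 gave 104, 20, 94 and 57, so Idh1-WT 1 and Idh1-R132H 1 lay closer together. In neutrophil-like cells Gm5483 led everywhere, with 55.8% and 51.5% against 55.0% and 64.7%.

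Along the order of maturation markers the 4 genes beyond Gm5483 stood apart in the second bin, at 30.1 and 48.4 CPM in Idh1-WT against 1.68 and 1.09 in Idh1-R132H, the latter from 1 UMI each. The wild-type values also rest on few cells. They came from 28 UMIs each, of which Stfa1 gave 19 in 5 cells of Idh1-WT 1 and 27 in 2 cells of Idh1-WT 2. In the third bin the 4 genes stood at 275 and 265 against 88.6 and 6.58 CPM, where all 32 UMIs of Idh1-R132H 1 were Stfa1 in 1 cell. In the wild-type libraries of that bin Stfa1 gave 101 UMIs in 5 cells and 39 in 8. BC100530 gave 42 in 4 cells and 15 in 2. In the fifth bin they stood at 201 and 623 against 128 and 122. Gm5483 and Stfa2l1 summed overlapped between genotypes in bins 1, 2, 4 and 5, at 1031 and 2352 against 1113 and 1522 CPM in the fourth. In the third bin they were lower in both Idh1-R132H libraries, at 297 and 376 against 174 and 246 CPM.

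**Figure D4:**
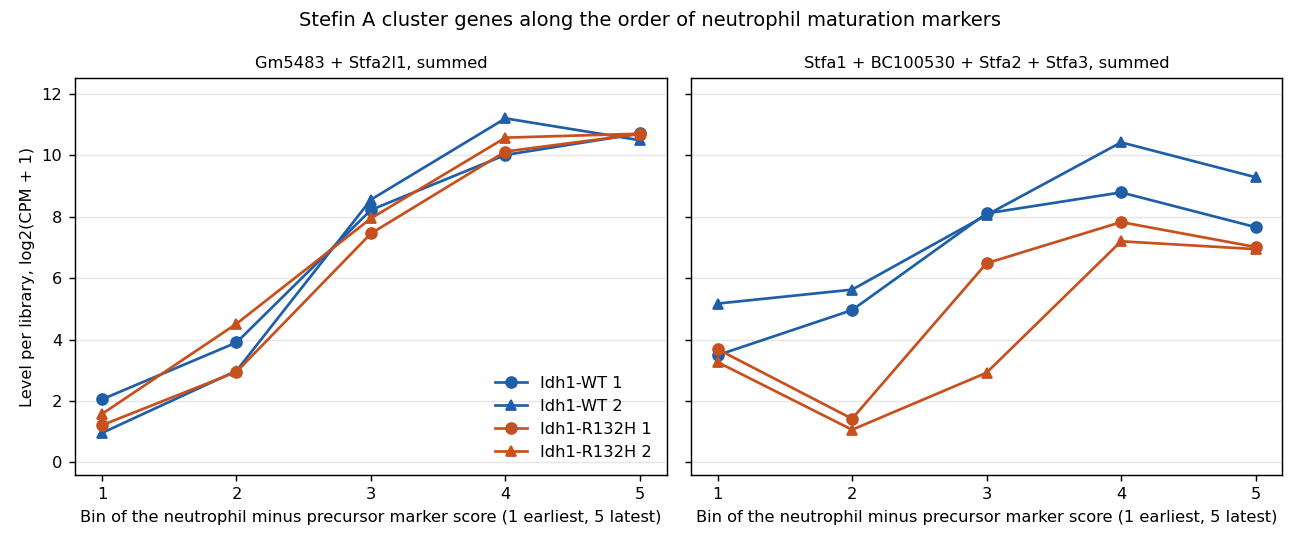
Level per library, as log2(CPM + 1), of Gm5483 and Stfa2l1 summed (left) and of the other 4 members summed (right) in 5 bins of cells ordered by neutrophil minus precursor marker score, blue Idh1-WT and orange Idh1-R132H, circles replicate 1 and triangles replicate 2. The lines of the 4 libraries cross on the left, while on the right both Idh1-R132H lines lie below both Idh1-WT lines in bins 2 to 5.

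The sum of 6 in neutrophil-like cells differed by -0.63 on the log2 scale, and by -0.12 without Idh1-WT 2, the library with the richest cell. Left without the 5 richest cells of each library it was -0.58. In precursor-like cells it differed by -1.38, and by -0.40 when classes were given by cluster. By cluster the sum of Stfa1, BC100530, Stfa2 and Stfa3 stood at 25.2 and 52.0 against 23.4 and 5.36 CPM (-1.42), and that of Gm5483 and Stfa2l1 at 35.0 and 9.91 against 45.9 and 18.0. Among cells with a Xist UMI and no Y-linked UMI, the sum of Stfa1, BC100530, Stfa2 and Stfa3 differed by -1.94 in precursor-like and -0.93 in neutrophil-like cells, and the sum of 6 by -1.80 and -1.09. In the same cells Gm5483 and Stfa2l1 summed differed by -1.47 and -1.24, against -0.06 and -0.30 over all cells. Stefin-carrying cells among them numbered only 26, 7, 4 and 7 in precursor-like and 16, 3, 8 and 5 in neutrophil-like cells.

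Other inhibitors and the proteases were also compared between genotypes. Slpi was the single list gene that passed in either class. It fell from 3949 and 4175 CPM to 2158 and 2303 in neutrophil-like cells (by 0.97 on the log2 scale, SE 0.18, adjusted p = 0.015 by edgeR) and from 654 and 631 to 439 and 383 in precursor-like cells (by 0.64, SE 0.12, adjusted p = 0.00012). The groups did not overlap. In neutrophil-like cells the call was lost without Idh1-R132H 1 (adjusted p = 0.88), without Idh1-R132H 2 (0.70) and with library totals alone (0.094), and in precursor-like cells without Idh1-R132H 2 (0.60) and with the replicate block (0.052).

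Of the 4 other cysteine protease inhibitors tested in neutrophil-like cells none passed, with Cst7 nearest at 29.6 against 55.8 CPM (log2 fold 0.78, SE 0.34, adjusted p = 0.52) and Cstb at 118 against 126. Of the 4 in precursor-like cells none passed, and Cstb stood at 75.1 against 64.5 CPM. Among cathepsins, 4 were tested in neutrophil-like and 7 in precursor-like cells and none passed. Ctss stood at 25.7 and 19.1 CPM (Idh1-WT) against 25.4 and 50.7 (Idh1-R132H) in neutrophil-like cells. In precursor-like cells it stood at 7.44 and 5.29 against 6.08 and 31.7 CPM (log2 fold 1.703, SE 0.51, adjusted p = 0.51 by edgeR). The genotypes overlapped in both classes, and the high values were those of Idh1-R132H 2. Of the cluster's neighbours 3 and 7 were tested and none passed. Median log2 folds in neutrophil-like and precursor-like cells were -0.01 and 0.12 for neighbours, 0.04 and -0.10 for cathepsins, -0.10 and -0.11 for other cysteine and -0.13 and 0.06 for serine protease inhibitors.

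Late neutrophil genes had a median log2 fold of -0.22 over 20 tested in neutrophil-like cells and 0.05 over 17 in precursor-like cells, and S100 and antimicrobial genes -0.22 and 0.04 over 12, beside 0.00 over all genes in both classes. None passed. The nearest late genes in neutrophil-like cells were Cxcl2 (7.60 against 32.4 CPM, adjusted p = 0.24) and Mmp9 (1758 against 1354 CPM, adjusted p = 0.51). At an unadjusted p under 0.05 there were 306 genes in neutrophil-like and 390 in precursor-like cells.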

How the data were processed

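Single-cell libraries were 10x 3′ v2, per the labels. The submitters' processing notes name Cell Ranger 4.0.0, Seurat and the build GRCm38 (mm10). The deposited values are raw UMI counts per gene and barcode, and of 27998 features 98.7% matched GENCODE vM21. Cells had at least 500 UMIs and 200 genes and at most 10% mitochondrial UMIs. Scrublet (scanpy 1.11.5, Python 3.11.15) marked 18 of 16280 cells as doublets (0.111%), too few for a caller that had worked, so removal of 535 top-scoring cells was tried as an alternative. Each cell took the highest of 15 marker scores if it led by 0.2, a lead set after the data were seen. Of 1170 cells with neutrophil as top score 72 stayed unclassed, and of 1465 with precursor 75. Clusters (Leiden) gave the same class for 96.6% and 92.4%.

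UMIs were summed per library and class. The main test was edgeR 4.0.16 (quasi-likelihood, TMM, filterByExpr, R 4.3.3) with Benjamini-Hochberg adjustment at 0.05. Genotype was fitted within each class, and stage and carrying state with the library as a block. DESeq2 1.42.0, other normalizations, filters and cell cuts, a block on replicate number and leaving out 1 library at a time were alternatives, and tests were checked on simulated counts. The members and gene lists were chosen with earlier results of these data known. Named genes were the members, for each list up to 4 genes with the smallest p, and, for stage and carrying state, the 5 largest called rises and falls whose log2 CPM averaged 5 or more. Reads of near-identical copies were counted as deposited.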

Additional observations from a re-analysis of the deposited data

How the results depend on the processing

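The summed stefin difference between genotypes in neutrophil-like cells was -0.63 on the log2 scale, -1.09 in cells with Xist and no Y-linked UMI, and between -1.004 and -0.12 with 1 library left out, the last without Idh1-WT 2. In precursor-like cells it was -1.38, -0.40 by cluster, -1.82 without the 5 richest cells of each library, -1.80 in cells with Xist and no Y-linked UMI, and between -1.64 and -1.08 with 1 library left out. Values in cells with Xist and no Y-linked UMI rest on 3 to 16 carrying neutrophil-like and 4 to 26 carrying precursor-like cells a library. With the replicate block the sums differed by -0.56 and -1.37. The replicate numbers did not pair the libraries: deviations of same-numbered libraries correlated at 0.02 and -0.08. With the replicate block 13 genes passed in neutrophil-like and 11 in precursor-like cells. Genes called between genotypes in neutrophil-like cells numbered 7, but 3 at no more than 5% mitochondrial UMIs, 13 by cluster, 0 with library totals (edgeR, 313 at an unadjusted p under 0.05), 11 with no filter and 2 with DESeq2. They numbered between 2 (without Idh1-R132H 1 or 2) and 247 (without Idh1-WT 1), and 14 without Idh1-WT 2. In precursor-like cells 18 were called, 11 at 1000 UMIs or more, 4 by cluster, 10 with library totals, 3 with DESeq2, and between 5 and 24 with 1 library left out. Between stages 2542 were called, 3910 by cluster, and between 2123 and 2574 with 1 library left out. Between carrying and other cells 1 was called, 3 at 1000 UMIs or more, 2 at no more than 5% mitochondrial UMIs, 4 without top doublet scores, 3 by cluster, 3 with no filter, 0 with DESeq2, 5 after thinning (an alternative chosen after seeing the data), and between 0 and 8 with 1 library left out. The cause of these shifts was not tested. Of 83 alternatives for these 6 results 50 kept the value or call, as did 136 of 158 for 13 others. Direction was not stable for Gm5483 and Stfa2l1 summed (-1.47 to 0.72 in precursor-like cells, the same sign in 9 of 14 alternatives, and -1.24 to 0.05 in neutrophil-like cells, 13 of 14) or for the log2 ratio of the carrying share of neutrophil-like cells (-0.14 to 0.20, 2 of 5). Leaving out the 5 richest cells could not be computed for the 4-gene sum in precursor-like cells. With 2 libraries a group and few cells carrying Stfa1, Stfa2, Stfa3 or BC100530, genotype values of these copies rest on 0 to 19 cells a library.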
